A study of Mus musculus with 7 samples.

Results

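Integrin, laminin and collagen genes were examined in the prefrontal cortex (PFC) of female mice by bulk RNA-seq. They were taken from the deposited gene table as every protein-coding gene whose symbol names an integrin alpha or beta chain, a laminin alpha, beta or gamma chain, or a collagen alpha chain. This gave 81 genes of 55416, with 26 integrins, 11 laminins and 44 collagens, and 72 of the 81 had enough counts to be tested. All mice were female wild-type C57BL/6 and received a recombinant AAV in the PFC of both hemispheres, with the human synapsin promoter, which is active in neurons, and EGFP. The 3 Ctr libraries came from mice given the empty vector, the 2 Ref libraries from mice given the human lncRNA gene PAXIP1-AS1 with its C allele, and the 2 Alt libraries from mice given the same gene with the G allele. The age at tissue collection was not given in the sources used here, and the transcript carried by the virus was not analysed here. Since tissue and not sorted cells was sequenced, fewer cells of a type and less RNA per cell cannot be told apart in any value below.

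Integrins are receptors made of an alpha and a beta chain that bind the extracellular matrix outside the cell and, through adaptor proteins, the cytoskeleton inside it. Laminins are heterotrimers of an alpha, a beta and a gamma chain, and with the network of type IV collagen they form the scaffold of basement membranes. Fibrillar collagens such as type I make tissue fibers. In the cortex, basement membranes surround blood vessels and cover the surface beneath the pia, and endothelial cells, mural cells, astrocyte endfeet and fibroblasts contribute to them, whereas neurons express a few transmembrane collagens and several integrins.

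The total count per library ranged from 16655697 to 20750857. The Alt libraries differed most from each other, with a chi-square of 59.6 per degree of freedom over all genes, against 18.97 to 25.6 for pairs of Ctr or of Ref libraries. Over the integrin, laminin and collagen genes alone the Alt pair had 16.4, within the 11.3 to 18.8 of the other pairs. Alt replicate 1 was the library that stood apart. Across all tested genes, its log2 CPM had a correlation of 0.906 to 0.929 with each other library, against 0.945 to 0.978 among the other 6 (a description across genes, which are not replicates). Values without an Alt library are given beside the calls that this ends. Neuronal and cortical markers were detected in every library, and the summed CPM (counts scaled to library size by edgeR's TMM method) of 9 neuronal markers ranged from 8980 to 10411, while 4 of 6 choroid plexus markers were listed at 0 in at least 1 library. The labels do not say that libraries of a group came from separate animals, so p-values measure only the spread between these libraries.

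The type IV collagen genes lie in head-to-head pairs, with both genes of a pair read away from a shared stretch of DNA, and the promoters of the pairs that hold Col4a1 and Col4a5 are shown because these carry the common network chains and the type IV chain with the lowest p in the comparisons below. In the coordinates of the deposited table, whose genome build the sources used here do not name reliably, Col4a1 (chromosome 8, 11248423 to 11362826) and Col4a2 (chromosome 8, 11362805 to 11499287) overlap by 22 bases, the starts of Col4a4 and Col4a3 lie 72 bases apart, and those of Col4a6 (chromosome X, 139948399 to 140257072) and Col4a5 (chromosome X, 140258381 to 140472230) lie 1309 bases apart. RefSeq's promoter windows on GRCm38.p6, from 250 bases before to 50 bases after the start of the gene, were found for 58 of the 81 genes. The 4 windows are printed on the strand of the gene, 5′ to 3′, with CCAAT boxes and GC boxes (GGGCGG), each searched on both strands, in capitals. The Col4a1 window is chr8:11312777-11313076 (minus strand), that of Col4a2 is chr8:11312555-11312854 (plus strand), that of Col4a6 is chrX:141474027-141474326 (minus strand) and that of Col4a5 is chrX:141475169-141475468 (plus strand).
Col4a1: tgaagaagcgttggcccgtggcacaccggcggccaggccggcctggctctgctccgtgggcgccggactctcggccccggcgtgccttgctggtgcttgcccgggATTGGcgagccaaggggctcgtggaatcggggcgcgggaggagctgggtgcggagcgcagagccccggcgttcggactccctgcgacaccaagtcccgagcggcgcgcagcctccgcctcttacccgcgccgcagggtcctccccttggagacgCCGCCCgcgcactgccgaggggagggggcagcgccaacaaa
Col4a2: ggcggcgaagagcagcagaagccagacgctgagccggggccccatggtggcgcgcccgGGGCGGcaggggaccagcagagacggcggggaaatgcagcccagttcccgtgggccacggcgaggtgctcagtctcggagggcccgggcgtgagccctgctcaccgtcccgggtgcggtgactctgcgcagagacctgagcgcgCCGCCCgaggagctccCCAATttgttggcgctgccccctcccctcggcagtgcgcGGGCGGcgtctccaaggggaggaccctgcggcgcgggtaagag
Col4a6: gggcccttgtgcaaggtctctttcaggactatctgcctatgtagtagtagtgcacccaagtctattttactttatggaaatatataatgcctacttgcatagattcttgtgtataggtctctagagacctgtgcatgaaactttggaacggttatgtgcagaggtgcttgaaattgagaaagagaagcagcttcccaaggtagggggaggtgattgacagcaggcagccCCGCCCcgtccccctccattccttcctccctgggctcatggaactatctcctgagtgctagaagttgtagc
Col4a5: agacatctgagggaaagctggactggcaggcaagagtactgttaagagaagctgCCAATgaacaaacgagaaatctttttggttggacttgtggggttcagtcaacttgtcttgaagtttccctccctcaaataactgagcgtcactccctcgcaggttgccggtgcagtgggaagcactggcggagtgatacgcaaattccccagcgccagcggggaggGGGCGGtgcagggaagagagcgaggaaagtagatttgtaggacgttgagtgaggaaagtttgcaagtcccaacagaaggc
The Col4a1 and Col4a2 windows share 78 bases, and those of Col4a6 and Col4a5 share none. CCAAT was found in the windows of Col4a1, Col4a2 and Col4a5 and a GC box in each of the 4 windows, against 37.41% and 35.66% of the 32851 windows of the RefSeq table. A TATA box, searched as TATAAA on both strands, was in none of the 4 windows and in 13.62% of all windows. Over the 64 windows of the 58 integrin, laminin and collagen genes, the shares were 26.56% for CCAAT, 54.69% for a GC box and 7.81% for a TATA box. Within a window the capitals do not overlap each other. The GC box of Col4a1 and the last GC box of Col4a2 are the same bases of the shared stretch, read from opposite strands. These letter matches are a description of the windows only.

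Levels between genes were compared in FPKM, which divides the counts by the length of the gene. The highest FPKM values belonged to integrin chains. Itgb1, the beta chain shared by most matrix-binding integrins, had a mean of 23.8 over the 7 libraries and a range from 21.6 to 25.8. It was followed by Itgb5 with a mean of 22.5 (19.3 to 27.2), Itgb8 with 18.3 (13.7 to 26.8) and Itgav with 14.2 (11.8 to 16.6), and the ranges of neighbours in this order overlapped. Itgav is the alpha chain that pairs with the Itgb5 and Itgb8 chains. The leading laminins were Lamb2 at a mean of 7.88 FPKM and Lamc1 at 6.37, and the leading collagens were Col6a1 at 5.83, the neuronal transmembrane collagen Col25a1 at 3.90 and Col4a1 at 3.84. Of the 81 genes, 31 had a mean of at least 1 FPKM and 50 lay below it.

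**Figure D1:**
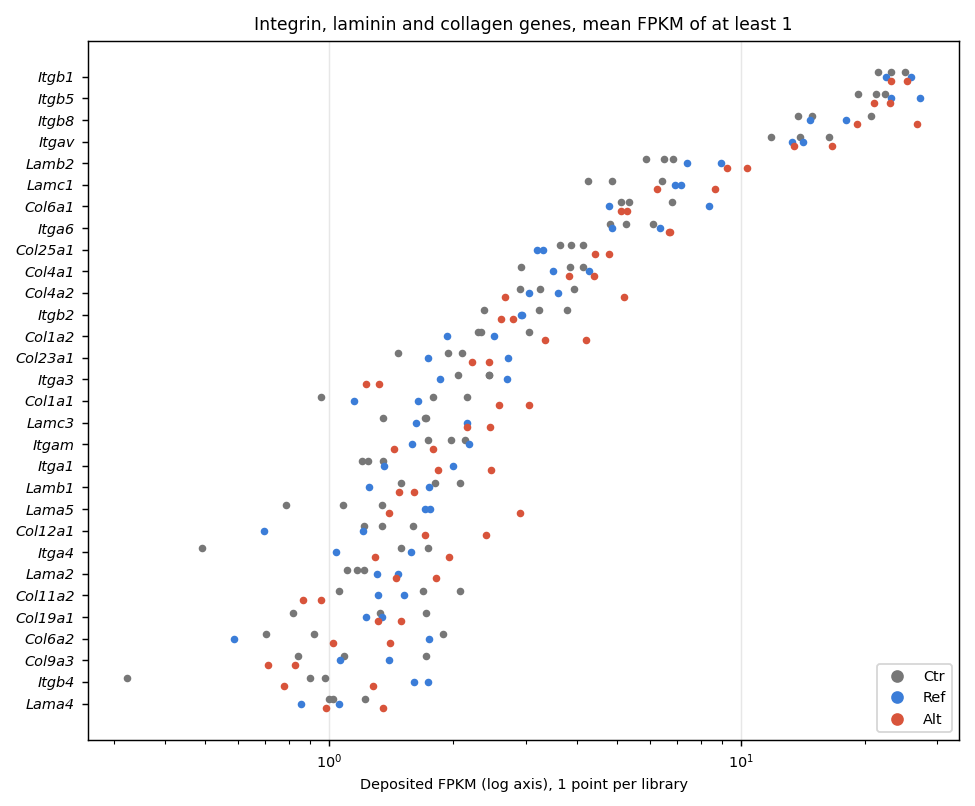
Deposited FPKM values (log axis) of integrin, laminin and collagen genes with a mean FPKM of at least 1, with 1 point per library, ordered by mean and colored by group. Itgb1, Itgb5, Itgb8 and Itgav hold the highest values, none below 11.8, and the next gene, Lamb2, lies between 5.87 and 10.4.

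In the comparison of Alt with Ctr, which sets the G allele against the empty vector, no gene in the table reached an adjusted p under 0.05 by edgeR's quasi-likelihood test with Benjamini-Hochberg adjustment (0 of 17254, 0%). At an unadjusted p of 0.05, 15 of the 72 tested matrix and integrin genes were higher in Alt and 2 were lower, and DESeq2 counted the same number, 17, against 21.1% of all genes, of which 6 also passed its adjusted p of 0.05, against 6.51% of all genes. The total of 17 was 23.6% of the tested genes, close to the background of 19.8% of all genes, but the directions were uneven. The higher genes made up 20.8% against 9.45% of all genes, and the lower ones 2.78% against 10.3%. The log2 fold change (log2FC) was above 0 in 50 of the 72, 69.4% against 47.9% of all genes, with a median of 0.24 against -0.03. The higher genes were 6 of 11 laminins, 6 of 39 collagens and 3 of 22 integrins. These 72 genes were long, with a median of 7416 bases against 4051 for all genes tested, and with an offset for gene length in the model 11 of the 72 passed, against 16.4% of all genes, of which 9 were higher (against 7.3% of all genes) and 2 lower. With this offset the log2FC was above 0 in 43 of the 72, with a median of 0.10 against -0.01. With the offset and a block for the replicate number together, 6 were higher (against 5.33% of all genes) and 4 lower, and 44 were above 0, with a median of 0.22. Without Alt replicate 1 the count was 10, with 7 higher, where the share of all genes was 8.14%, with 3.68% higher. Without Ctr replicate 1 it was 11, with 10 higher, where the share of all genes was 11.8%, with 5.69% higher.

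**Figure D2:**
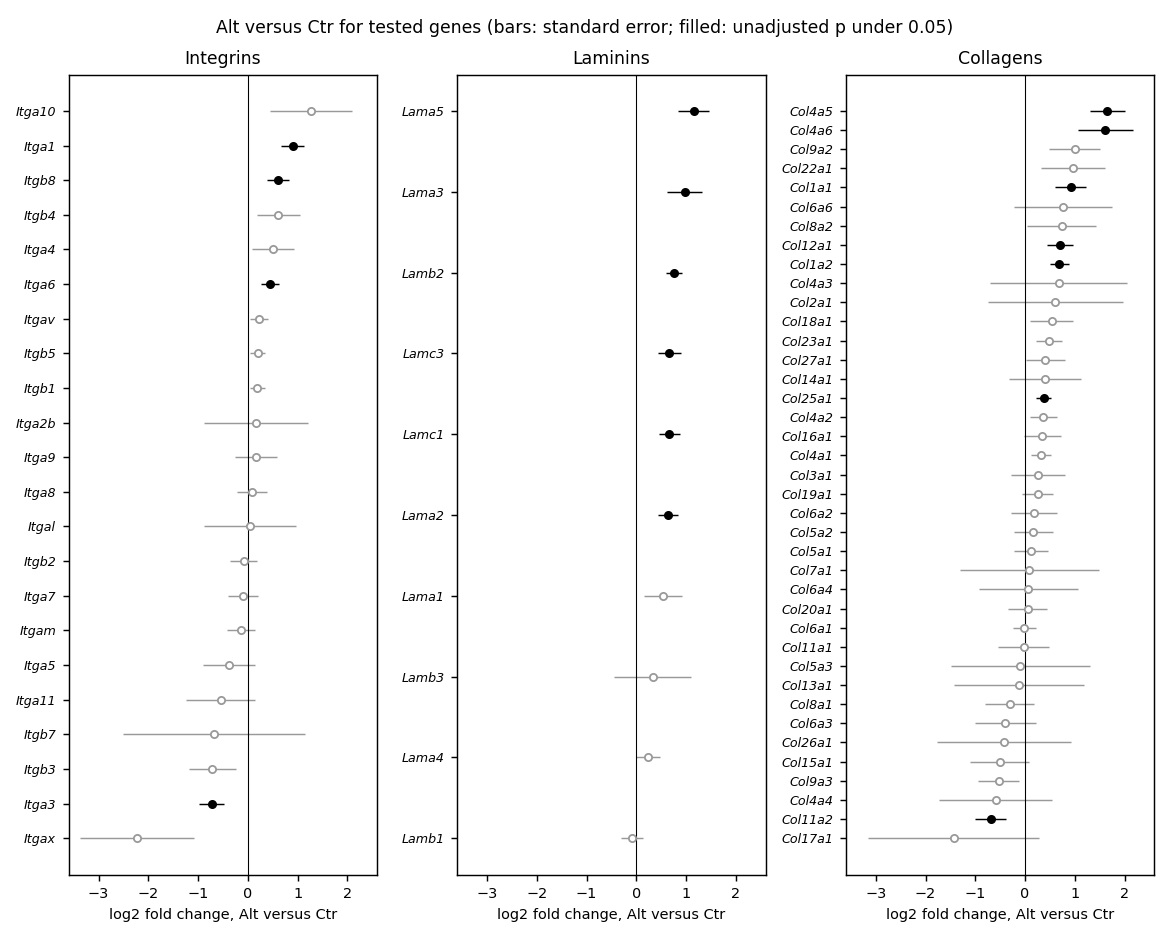
Log2 fold change of Alt versus Ctr (x axis) for tested genes, in panels for integrins, laminins and collagens, with bars of 1 standard error and filled points for an unadjusted p under 0.05. In the laminin panel the points other than Lamb1 lie above 0 and 6 are filled, while in the integrin panel 13 of 22 lie above 0 and 3 of these are filled.

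Laminin genes showed the largest median of the 3 families, with a log2FC of 0.63 in Alt versus Ctr. They were also the longest, with a median of 9681 bases against 7833 for collagens and 5805.5 for integrins. Medians per family with the offset for length are not given here. The 6 that passed were Lama2, Lama3, Lama5, Lamb2, Lamc1 and Lamc3, which include chains of each kind, and none was lower. Lamb2, a beta chain of vascular basement membranes, had 34.4, 39 and 40 CPM in Ctr, 51.9 and 46 CPM in Ref, and 68.3 and 58.6 CPM in Alt. The 3 groups did not overlap, and their order was Ctr, Ref, Alt. Its log2FC in Alt versus Ctr was 0.75 ± 0.16 (SE), a 1.68-fold difference, with an unadjusted p of 0.000637 and an adjusted p of 0.12 (edgeR's quasi-likelihood test). Lamc1, the gamma chain of most laminins, had 33.8, 39.7 and 51.4 CPM in Ctr, 54.7 and 60.6 in Ref, and 77.6 and 54 in Alt. Every Ctr library was below every Ref and Alt library, while Alt and Ref overlapped. Its log2FC was 0.66 ± 0.21 in Alt versus Ctr, with an unadjusted p of 0.00875.

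Lama5, an alpha chain of endothelial basement membranes, had 8.59, 12.1 and 14.7 CPM in Ctr, 19.1 and 19.9 in Ref, and 35.9 and 16.6 in Alt. Again the Ctr libraries lay below all others, but the Alt libraries lay on both sides of Ref. The log2FC of Lama5 in Alt versus Ctr was 1.15 ± 0.31 (unadjusted p = 0.00335), and without Alt replicate 1 it was 0.49 (unadjusted p = 0.11). Lama2, the alpha chain whose loss causes a congenital muscular dystrophy, had 19.4, 19.1 and 17.7 CPM in Ctr, 20.8 and 24.9 in Ref, and 32.8 and 25.2 in Alt, again with no overlap between Ctr and the rest. Its log2FC of 0.63 ± 0.20 (unadjusted p = 0.00887) was 0.14 with the offset for gene length (unadjusted p = 0.474), the length of Lama2 being 16605 bases. With a block for the replicate number the log2FC of Lama2 was 0.59 (unadjusted p = 0.0556), and with the block and the offset together 0.05 (unadjusted p = 0.817). Lama3 and Lamc3 had log2FC of 0.97 ± 0.35 (unadjusted p = 0.0177) and 0.66 ± 0.24 (unadjusted p = 0.0162) in Alt versus Ctr. Without Alt replicate 1, Lamc1 and Lama3 did not pass (log2FC 0.38 and 0.63), and Lama2 did not either (0.43), whereas Lamb2 (0.63) and Lamc3 (0.73) did. Without Alt replicate 2 it was Lamc3 that did not pass (0.60, unadjusted p = 0.0557), nor did it without Ctr replicate 1 (0.56, unadjusted p = 0.0592). The call of Lama3 also ended with the offset for length (0.68, unadjusted p = 0.0623), without Ctr replicate 1 (0.89, unadjusted p = 0.0504) and without Ctr replicate 2 (0.78, unadjusted p = 0.0564). Among the laminins that did not pass, Lama4 of endothelial laminin had a log2FC of 0.24 ± 0.24, and Lamb1, the beta chain paired with Lamc1 in early laminins, had -0.09 ± 0.23.

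Of the type IV collagens, Col4a5 and Col4a6, whose promoter windows are printed above, were both higher in Alt, while Col4a1 and Col4a2, the chains of the common basement membrane network, did not pass. Col4a5 had 2.78, 2.31 and 3.76 CPM in Ctr, 4.93 and 6.41 in Ref, and 11.4 and 7.19 in Alt. As for Lamb2, the groups did not overlap and were ordered Ctr, Ref, Alt. The log2FC of Col4a5 in Alt versus Ctr was 1.65 ± 0.35, a 3.14-fold difference (unadjusted p = 0.000556, adjusted p = 0.12), the lowest p among the tested matrix and integrin genes. Its partner Col4a6 had 1.54, 1.48 and 1.25 CPM in Ctr, 1.31 and 1.24 in Ref, and 6.31 and 2.45 in Alt. Only the Alt libraries stood above the rest for Col4a6, and they differed from each other. Its log2FC was 1.62 ± 0.55 in Alt versus Ctr (unadjusted p = 0.0132) and 0.79 without Alt replicate 1. Col4a6 did not pass with the replicate block (1.43, unadjusted p = 0.078) or with the block and the offset for length together (1.23, unadjusted p = 0.116). Its counts were low, between 24 and 97 per library. Col4a1 had 29.7, 21.5 and 27.6 CPM in Ctr, 30.5 and 26.7 in Ref, and 35.6 and 29.7 in Alt, and its log2FC in Alt versus Ctr was 0.31 ± 0.20 (unadjusted p = 0.146). Col4a2 had a log2FC of 0.37 ± 0.27 (unadjusted p = 0.203), with 37.3 CPM in Alt replicate 1 and 18.4 to 25.1 in the other libraries. Without Alt replicate 2, Col4a2 passed in Alt versus Ctr (0.79, unadjusted p = 0.00381) and in Alt versus Ref (0.79, unadjusted p = 0.00628). Col4a3 and Col4a4 were at 39 counts or fewer in every library and did not pass in any comparison over all 7 libraries. Without Alt replicate 2, Col4a4 passed as lower in Alt versus Ctr (-3.53, unadjusted p = 0.0495) and in Alt versus Ref (-4.28, unadjusted p = 0.0238), the remaining Alt library holding 1 count. The difference between the Col4a5 and Col4a6 pair and the Col4a1 and Col4a2 pair was not itself tested.

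Among the fibrillar collagens, both chains of type I collagen passed. Col1a1 had 11.3, 6.15 and 13.7 CPM in Ctr, 10.3 and 7.7 in Ref, and 18.4 and 20.9 in Alt, and Col1a2, the other chain of the same fiber, had 27.5, 28.6 and 36.6 CPM in Ctr, 29.7 and 24.6 in Ref, and 45 and 54.4 in Alt. For both chains the Alt libraries lay above every other library, and the Ref and Ctr ranges overlapped. The log2FC of Col1a1 was 0.92 ± 0.31 in Alt versus Ctr (unadjusted p = 0.0119) and 1.12 ± 0.35 in Alt versus Ref (unadjusted p = 0.00741), the latter 0.94 without Ref replicate 2 (unadjusted p = 0.0594). For Col1a2 it was 0.69 ± 0.19 in Alt versus Ctr (unadjusted p = 0.0042) and 0.87 ± 0.22 in Alt versus Ref (unadjusted p = 0.00174). With the offset for length, Col1a2 had a log2FC of 0.37 in Alt versus Ctr (unadjusted p = 0.0946) and still passed in Alt versus Ref (0.62). Col3a1, which forms fibers with type I collagen, had a log2FC of 0.26 ± 0.55 in Alt versus Ctr, with 1.5 CPM in Alt replicate 1 and 5.86 in replicate 2. Of the 39 tested collagens, 12 had a log2FC below 0 in Alt versus Ctr, among them Col15a1 (-0.51 ± 0.59, and -1.97 without Alt replicate 1). Col11a2 was the only collagen that passed as lower over all 7 libraries, with 11.2, 14.1 and 7.01 CPM in Ctr, 9.96 and 9.26 in Ref, and 6.44 and 6.86 in Alt (log2FC -0.69 ± 0.31, unadjusted p = 0.0473). Its Alt libraries lay just below the lowest Ctr library. This call was lost in 9 of 15 alternatives, with an unadjusted p of 0.0641 in DESeq2, 0.104 without Alt replicate 1 and 0.0694 without Alt replicate 2. Col11a1, its partner chain, had a log2FC of -0.03 ± 0.51.

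Markers of other cell types were counted in the same libraries, and 9.45% of all genes were higher and 10.3% lower in Alt versus Ctr at the same threshold. For meningeal and perivascular fibroblasts, the summed CPM over 11 marker genes was 85.3 to 109 in Ctr, 85.2 and 90.5 in Ref, and 117 and 159 in Alt, and 3 of the 10 tested were higher in Alt versus Ctr (Foxc1, Slc13a3 and Slc47a1, named after their values were seen), none was lower and 7 did not pass. All 10 had a log2FC above 0, with a median of 0.57 against -0.03 for all genes. Dpep1 was at 0 in 6 of 7 libraries, and Dcn, an abundant fibroblast proteoglycan, had a log2FC of 0.05 ± 0.23. For vessel cells, the summed CPM of 12 endothelial markers was 566 to 636 in Ctr, 713 and 790 in Ref, and 672 and 795 in Alt, with 2 of 12 higher in Alt versus Ctr, and that of 10 mural cell markers was 332 to 380 in Ctr, 350 and 439 in Ref, and 453 and 441 in Alt, with 2 of 10 higher. In summed FPKM, the endothelial markers were at 149 to 154 in Ctr, 191 and 181 in Ref, and 123 and 184 in Alt. The summed CPM of 10 astrocyte markers was 5281 to 7007 in Ctr, 7120 and 8841 in Ref, and 11642 and 8139 in Alt, with 2 of 10 higher in Alt versus Ctr and none lower. Of these astrocyte markers, 6 had a log2FC above 0 and 4 below, with a median of 0.10. The summed CPM of 10 microglia markers was 502 to 568 in Ctr, 582 and 601 in Ref, and 467 and 529 in Alt, with 1 of 10 higher and 4 lower in Alt versus Ctr. The part of these cells in the laminin, collagen and integrin differences was not tested.

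Among the other collagens, Col12a1, which binds to the surface of type I fibers, had 17.8, 20.2 and 23.5 CPM in Ctr, 17.6 and 10.9 in Ref, and 39.7 and 27 in Alt. The Alt libraries were the highest and the Ref libraries the lowest. Its log2FC was 1.23 ± 0.29 in Alt versus Ref (unadjusted p = 0.0011) and 0.70 ± 0.25 in Alt versus Ctr (unadjusted p = 0.0171), the latter 0.26 with the offset for length, 0.40 without Alt replicate 1 and 0.61 without Ctr replicate 1 (unadjusted p = 0.0587). Col25a1 had 51.9, 46.7 and 48.5 CPM in Ctr, 41.1 and 42.6 in Ref, and 67.3 and 60 in Alt, with the same order of groups and no overlap. Its log2FC was 0.38 ± 0.15 in Alt versus Ctr (unadjusted p = 0.0296) and 0.61 ± 0.17 in Alt versus Ref (unadjusted p = 0.00383), and with the offset for length it was 0.00 (unadjusted p = 0.984) and 0.31 (unadjusted p = 0.0967). In Alt versus Ctr the call of Col25a1 ended in 9 of 15 alternatives, in 1 of them with the sign reversed (-0.0395 with a block for the replicate number and the offset for length together, unadjusted p = 0.841). It was 0.29 without Alt replicate 1 (unadjusted p = 0.141) and 0.34 to 0.38 without Ctr replicate 2, Ctr replicate 3 or either Ref library. Col22a1 passed only in Alt versus Ref (1.64 ± 0.73, unadjusted p = 0.0446), on 16 to 49 counts per library, and lost this call in 10 of 15 alternatives, among them the offset for length (1.47, unadjusted p = 0.0746) and the fit without Alt replicate 1 (1.29, unadjusted p = 0.158). Col6a1, a chain of microfibrillar type VI collagen, had a log2FC of -0.01 ± 0.24 in Alt versus Ctr, and Col18a1, the source of endostatin, had 0.53 ± 0.44.

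Of the 22 tested integrins, 3 were higher and 1 lower in Alt versus Ctr. The 4 with the highest FPKM gave log2FC in Alt versus Ctr of 0.19 ± 0.16 for Itgb1, 0.20 ± 0.15 for Itgb5, 0.23 ± 0.18 for Itgav and 0.62 ± 0.22 for Itgb8. Of these only Itgb8, which with Itgav activates latent TGF-beta, passed over all 7 libraries without an offset, while Itgb5 passed with the offset for length (0.36, unadjusted p = 0.0319). Itgb8 had 146, 225 and 158 CPM in Ctr, 155 and 204 in Ref, and 321 and 221 in Alt, so that Alt replicate 2 lay below Ctr replicate 2 (unadjusted p = 0.0169 versus Ctr, and 0.0336 versus Ref with a log2FC of 0.59 ± 0.25). Without Alt replicate 1 its log2FC versus Ctr was 0.32 (unadjusted p = 0.166), and with the offset for length 0.31 (unadjusted p = 0.0888). It did not pass versus Ctr without Ctr replicate 1 (0.50, unadjusted p = 0.0692) or replicate 3 (0.54, unadjusted p = 0.0632) either. The replicate block also ended this call (0.57, unadjusted p = 0.0777), as did the block and the offset together (0.23, unadjusted p = 0.243). Versus Ref, the call of Itgb8 ended in 5 of 15 alternatives. Its log2FC was 0.31 without Alt replicate 1 (unadjusted p = 0.216), 0.39 without Ref replicate 1 (unadjusted p = 0.209) and 0.35 with the offset for length (unadjusted p = 0.0799). It was 0.62 with a block for the replicate number (unadjusted p = 0.0607), and 0.37 with the block and the offset together (unadjusted p = 0.0752). Itga6 and Itga3, alpha chains of laminin receptors, passed in opposite directions. Itga6 had 42.2, 54.9 and 46.3 CPM in Ctr, 42.5 and 59.6 in Ref, and 66.6 and 63.5 in Alt (log2FC 0.44 ± 0.19 versus Ctr, unadjusted p = 0.0343). It did not pass with the offset for length (0.23, unadjusted p = 0.183), with the replicate block (0.44, unadjusted p = 0.0786) or with both (0.19, unadjusted p = 0.299). Nor did it pass without Alt replicate 1 (0.41), or without Ctr replicate 1 (0.36) or replicate 3 (0.42). Itga3 had 13.5, 11.5 and 13.5 CPM in Ctr, 14.7 and 10.9 in Ref, and 7.61 and 7.86 in Alt. Both Alt libraries were below all others for Itga3, by a log2FC of -0.73 ± 0.25 versus Ctr (unadjusted p = 0.0123) and -0.72 ± 0.27 versus Ref (unadjusted p = 0.0187), the latter -0.50 without Ref replicate 1 (unadjusted p = 0.184).

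Itga1, the alpha chain of a collagen receptor, had 21.5, 22.7 and 24.2 CPM in Ctr, 24.2 and 38 in Ref, and 49.8 and 35.5 in Alt, with Alt above Ctr and overlapping Ref. Its log2FC in Alt versus Ctr was 0.90 ± 0.23 (unadjusted p = 0.00186), and with the offset for length 0.37 (unadjusted p = 0.0644), at a length of 18599 bases. Itga1 is also uncertain because the table lists Pelo and Gm49395 over it on the same strand. Itga5, the fibronectin receptor chain, had a log2FC of -0.38 ± 0.52, and Itgam, a chain found on microglia that shares its locus with Gm49368, had -0.14 ± 0.28. Itgax, a chain of myeloid cells, was at 50, 101 and 14 counts in Ctr, 28 and 39 in Ref, and 0 and 20 in Alt, and did not pass in edgeR's test (unadjusted p = 0.0761), although it did in DESeq2 (unadjusted p = 0.0335). It also passed as lower in Alt versus Ctr without the low-count filter (unadjusted p = 0.00585), with the replicate block (unadjusted p = 0.0289), with the block and the offset for length (unadjusted p = 0.0199), without Ctr replicate 3 (unadjusted p = 0.0396) and without Alt replicate 2 (unadjusted p = 0.000745, adjusted p = 0.00974 by edgeR), where the remaining Alt library is at 0.

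**Figure D3:**
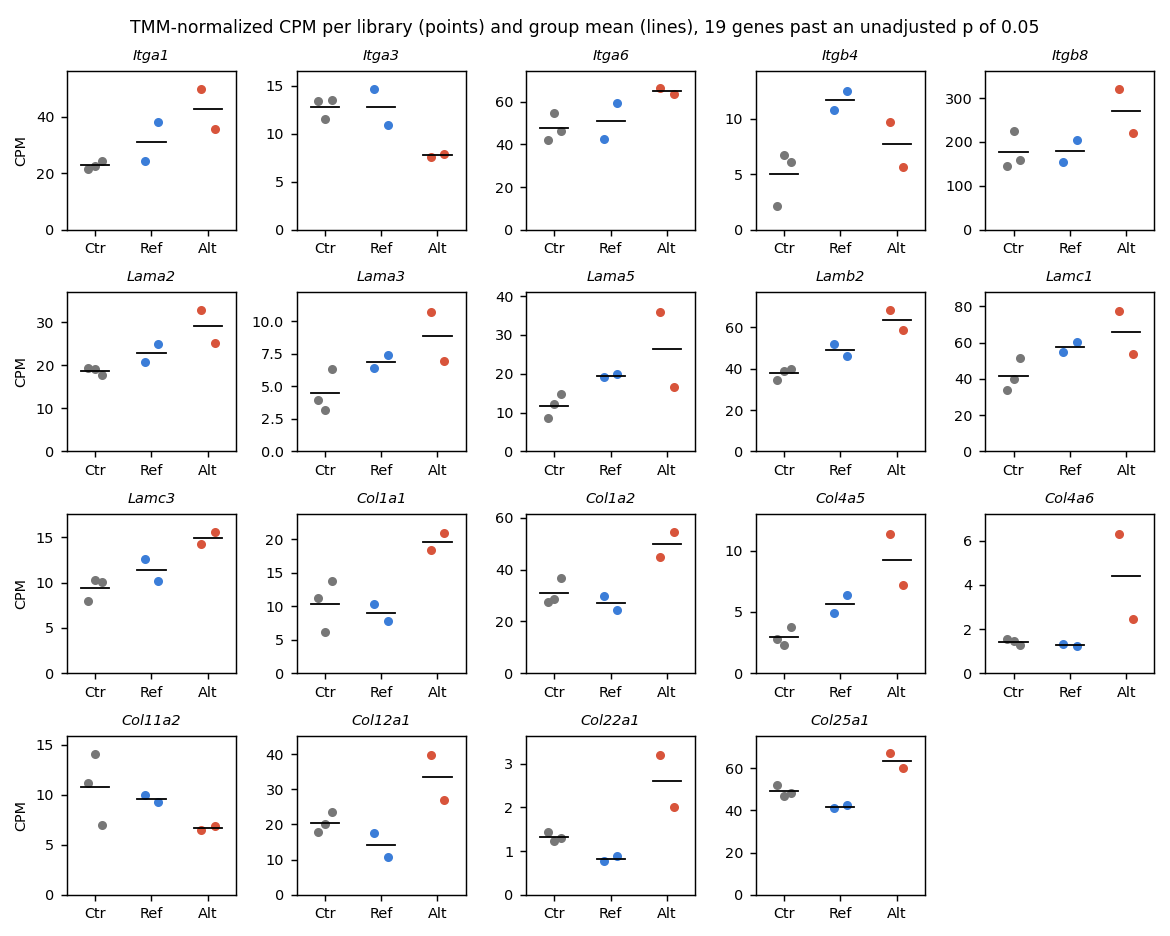
TMM-normalized CPM per library (y axis, starting at 0) in Ctr, Ref and Alt for the 19 genes with an unadjusted p under 0.05 in at least 1 pairwise comparison, with points for libraries and lines for group means. Col4a5 and Lamb2 step up from Ctr to Ref to Alt without overlap, Col1a1 and Col1a2 are higher in Alt only, and Itga3 is lower in Alt only.

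The comparison of Alt with Ref, which sets the alleles against each other, called 1 gene of the whole table at an adjusted p of 0.05 (0.0058%), and it was not an integrin, laminin or collagen gene. DESeq2 called 3 at that threshold, Col25a1, Col1a2 and Col12a1, against 2.6% of all genes. By edgeR, 7 of the 72 genes had an unadjusted p under 0.05 and were higher in Alt than in Ref and 1 was lower, 9.72% and 1.39% against 6.71% and 8.83% of all genes. The higher genes were Itgb8 and the collagens Col1a1, Col1a2, Col4a6, Col12a1, Col22a1 and Col25a1, and the lower gene was Itga3. Col4a6 had a log2FC of 1.77 ± 0.63 in this comparison (unadjusted p = 0.0162), and did not pass without Alt replicate 1 (0.95, unadjusted p = 0.229), Ref replicate 1 (1.80, unadjusted p = 0.0654) or Ref replicate 2 (1.75, unadjusted p = 0.0707). No laminin passed, although all 11 had a log2FC above 0, with a median of 0.36. Lamb2 had a log2FC of 0.38 ± 0.18 (unadjusted p = 0.0594) in edgeR's test, and passed in DESeq2 (0.41, unadjusted p = 0.0431), with RLE size factors (0.41, unadjusted p = 0.0423) and with the offset for length (0.37, unadjusted p = 0.0439). Without Alt replicate 2, Lamb2 (0.49), Lama5 (0.89) and Lama2 (0.53) passed. The log2FC was above 0 in 53 of the 72, 73.6% against 47.1% of all genes, with a median of 0.28 against -0.04. The count was 4 without Ref replicate 1, where 4.19% of all genes passed, and 19 without Alt replicate 2, where 28.9% did. Beside these values, 7 of 10 oligodendrocyte markers and 5 of 10 microglia markers were lower in Alt than in Ref and none was higher, with median log2FC of -0.82 and -0.39, and 10 of 10 tested fibroblast markers had a log2FC above 0, with 2 higher, none lower and a median of 0.80. Of 10 cortical pyramidal and prefrontal markers, 4 were higher and none lower, with 6 above 0, 4 below and a median of 0.29. Of 9 neuronal markers, 1 was higher and none lower, with a median of -0.04. The part of these cells in the differences was not tested.

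In the comparison of Ref with Ctr, which asks what the C allele does relative to the empty vector, 5 of the 72 genes were higher in Ref and none was lower with an unadjusted p under 0.05 by edgeR, 6.94% against 2.19% of all genes for the higher and 0% against 0.945% for the lower. No gene passed an adjusted p of 0.05 (0% of all genes). The 5 were Itgb4, Lama5, Lamb2, Lamc1 and Col4a5. Itgb4, which pairs with Itga6 in a laminin receptor, had 2.18, 6.74 and 6.08 CPM in Ctr, 10.8 and 12.5 in Ref, and 9.69 and 5.69 in Alt, with the Ref libraries above all others (log2FC 1.22 ± 0.42, unadjusted p = 0.0129). Col4a5 had a log2FC of 0.94 ± 0.35 in Ref versus Ctr (unadjusted p = 0.0215), Lama5 0.72 ± 0.32 (unadjusted p = 0.041), Lamc1 0.47 ± 0.21 (unadjusted p = 0.046) and Lamb2 0.37 ± 0.16 (unadjusted p = 0.0421). The log2FC was above 0 in 39 of the 72, 54.2% against 50.8% of all genes, with a median of 0.02 against 0.01 over all genes and 0.29 over the laminins. DESeq2 called 3 genes at an unadjusted p of 0.05, against 3.45% of all genes, and none at an adjusted one. The count was 1 without Ctr replicate 1, without Ctr replicate 2 or without Ref replicate 2, where 2.06%, 2.73% and 1.25% of all genes passed. Of the 15 alternatives, 1 ended the call of Itgb4, 3 that of Col4a5, 4 that of Lama5, 6 that of Lamc1 and 11 that of Lamb2. Oligodendrocyte markers stood apart in Ref, with a summed CPM over 10 genes of 3984 and 4926 against 2386 to 3326 in Ctr, and 7 of the 10 were higher. Of 12 endothelial markers, 11 had a log2FC above 0 in Ref versus Ctr, with 2 higher, none lower and a median of 0.24. Of 10 astrocyte markers, 8 had a log2FC above 0, with 2 higher, none lower and a median of 0.32. The part of these cells in the values of Ref versus Ctr was not tested.

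Alt and Ref were both compared with the same Ctr libraries, and Alt entered 2 of the comparisons, so these results are not independent. On an ordered score of 0 for Ctr, 1 for Ref and 2 for Alt, 13 of the 72 genes had a positive slope and 1, Itga3, a negative one with an unadjusted p under 0.05 by edgeR, 18.1% and 1.39% against 8.85% and 7.89% of all genes. No adjusted p was under 0.05 by edgeR (0% of all genes), and 3 were by DESeq2, against 3.54% of all genes. The slope was above 0 in 51 of the 72, 70.8% against 48.1% of all genes. The log2 change per step was 0.83 for Col4a5, 0.37 for Lamb2 and 0.58 for Lama5. Without Alt replicate 1 the count was 8, where 7.14% of all genes passed. Counted without a test, 13 genes had both Alt libraries above all Ctr and Ref libraries, 18.1% against 11.6% of all genes, and 2 had both below, 2.78% against 13.1%. In 7 genes, 5 of them laminins, the Ctr libraries lay below all others, 9.72% against 4.34% of all genes, and in 0 they lay above (0% against 4.01%). The Ref libraries lay above all others in 3 tested genes, Itga7, Itgb4 and Col17a1 (4.17% against 5.46%), and below in 6, among them Col11a1, Col12a1, Col22a1 and Col25a1 (8.33% against 4.18%).

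**Figure D4:**
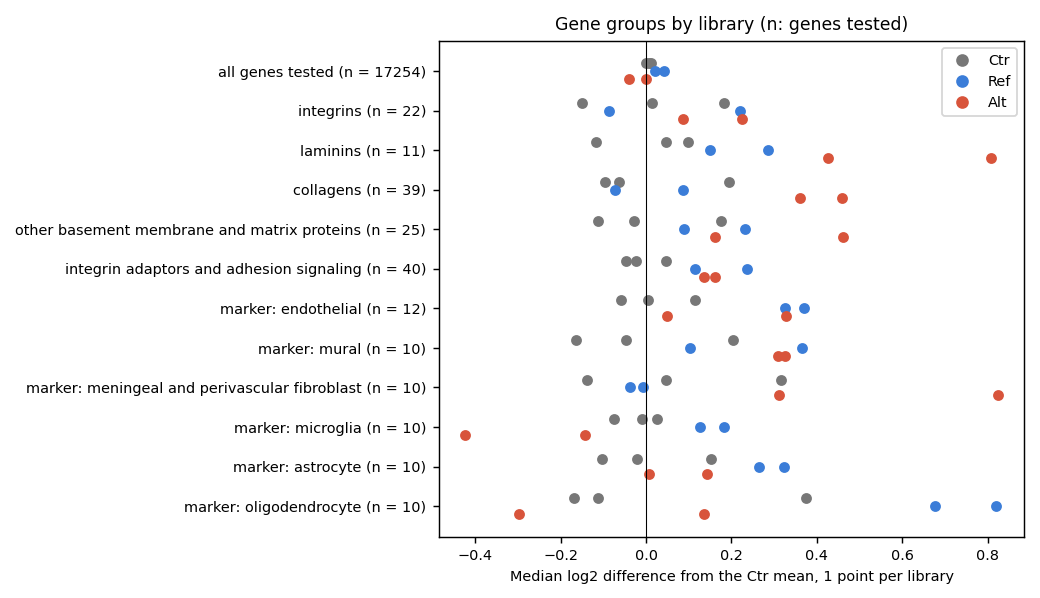
Median log2 difference from the Ctr mean (x axis) over the tested genes of each family or list, with 1 point per library. Laminins lie at -0.12 to 0.10 in Ctr, 0.15 and 0.28 in Ref, and 0.43 and 0.81 in Alt, and collagens at 0.36 and 0.46 in Alt, while the median of all genes stays between -0.04 and 0.04.

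Other genes of the same pathways were read from lists drawn up by role. Of 25 other basement membrane and matrix proteins, 6 were higher and none lower in Alt versus Ctr at an unadjusted p of 0.05, with a median log2FC of 0.36. For this and the next 3 lists the shares of all genes are 9.45% higher and 10.3% lower. They included Hspg2, which encodes the heparan sulfate proteoglycan perlecan (log2FC 1.16 ± 0.27), Fn1 or fibronectin (1.00 ± 0.25), the perineuronal net protein Tnr (0.80 ± 0.22) and Thbs1 (1.05 ± 0.32). Of 32 tested enzymes of collagen synthesis and processing, 2 were higher, Loxl3 (1.19 ± 0.45) and Adamts3 (0.66 ± 0.28), and the median was 0.00. P4hb and Plod3, which modify new collagen chains, had -0.31 and -0.42 and did not pass. Of 17 other receptors for laminin and collagen, 4 were higher and 2 lower. The collagen receptor Ddr2 had a log2FC of 1.08 ± 0.25 and Lair1 one of 0.57, while Rpsa, a ribosomal protein also known as a laminin receptor, had -0.75 ± 0.22 and Sgce, a sarcoglycan, -0.73. Of 40 adaptors and signaling proteins behind integrins, 10 were higher and 2 lower, with Flna (0.66 ± 0.14), Tns1 (0.66 ± 0.15), Shank1 (1.04 ± 0.25) and Dst (0.85 ± 0.24) at the smallest p. The summed CPM of this list was 5379.5 in Alt replicate 1 and 4132 in replicate 2, against 4045 and 3854 in Ref and 3262 to 3827 in Ctr. Median lengths were 5684.5 bases for these adaptors and 6073 for the matrix proteins, against 4051 for all genes tested. Values of these lists with the offset for length are not given here.

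Across the 3 pairwise comparisons, 19 of the 72 tested genes passed an unadjusted p of 0.05 at least once and 53 in none. The 19 were 26.4% of the tested genes, close to the 26.2% of all genes. The 53 had log2FC from -2.23 (Itgax) to 1.27 (Itga10) in Alt versus Ctr, with standard errors from 0.15 to 1.83, so that differences of the size seen for Lamb2 were not detectable in the sparse ones. The 9 genes not tested, Itga2, Itgad, Itgae, Itgb6, Col6a5, Col9a1, Col10a1, Col24a1 and Col28a1, had at most 14 counts in any library. Under the 15 alternatives, 6 results kept their direction and an unadjusted p under 0.05 throughout, namely Col4a5, Col1a1, Itga3 and Lamb2 in Alt versus Ctr, and Col12a1 and Col1a2 in Alt versus Ref.

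**Figure D5:**
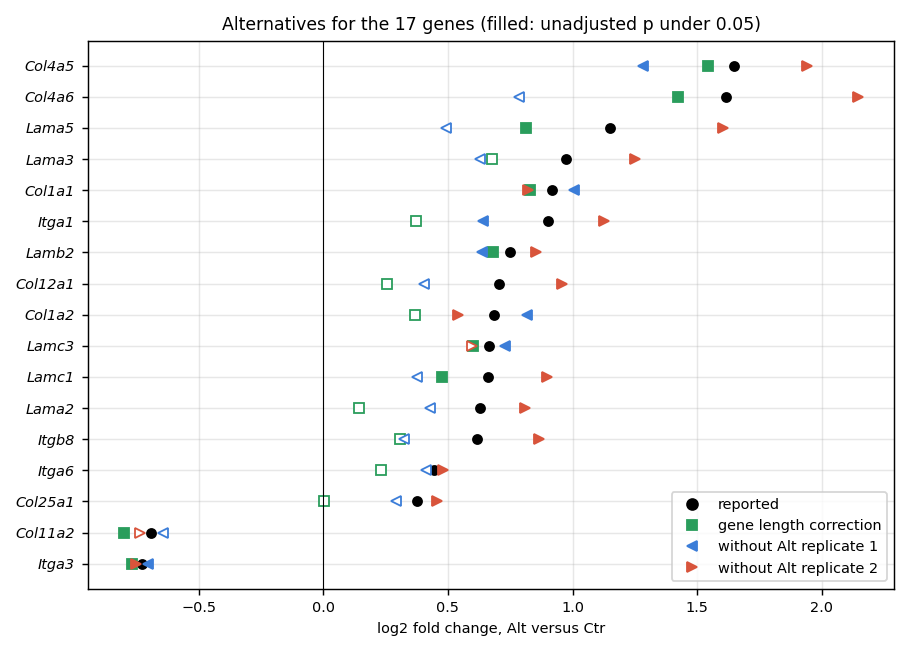
Log2 fold change of Alt versus Ctr (x axis) for the 17 genes that passed an unadjusted p of 0.05, as reported (circles), with an offset for gene length (squares) and without either Alt library (triangles), filled where the unadjusted p is under 0.05. Col25a1 and Lama2 move to 0.00 and 0.14 with the length offset, Col4a6 moves to 0.79 without Alt replicate 1, and Itga3 has -0.77 with the length offset and -0.70 without Alt replicate 1.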

How the data were processed

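RNA from the PFC of female mice was enriched for polyadenylated transcripts and sequenced in 3 Ctr, 2 Ref and 2 Alt libraries. The authors deposited raw counts per gene, with TPM and FPKM values made from them and the gene lengths. FPKM recomputed from the deposited counts and lengths lay within 1% of the deposited FPKM for 100% of values. Deposited TPM values were not used. STAR and featureCounts are named without version in the submitters' processing notes, which list the human build hg19. Only 3 of 81 genes have the same start and end in GRCm38, and whether counting used strand is not given in the sources used here, so overlapping and antisense genes are uncertain.

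Counts were analysed with edgeR 4.0.16 in R 4.3.3 (TMM normalization, filterByExpr, quasi-likelihood test, group means, all 7 libraries sharing 1 estimate of the spread). Adjusted p-values are Benjamini-Hochberg values over all 17254 genes tested, and an unadjusted p of 0.05 was used for counts of genes. Standard errors are the log2 fold change divided by the square root of F. The script was checked on simulated data. The ordered score was fitted as a slope. Alternatives were DESeq2 1.42.0, RLE size factors, no low-count filter, an offset for gene length (loess, span 0.3), a replicate block alone and with that offset, robust dispersion, the compared groups only, and each library left out in turn. The depth of 16655697 to 20750857 counts sets the precision, and 3 counts, the floor, correspond to 0.139 to 0.195 CPM. Genes named are those past an unadjusted p of 0.05 in a pairwise comparison, with the main chains of each family whatever their values, and up to 4 per further list by smallest p in Alt versus Ctr. The genes and lists were chosen with earlier results of these data known. One gene is counted in the totals but not reported here by name. Human samples and other assays were not analysed here.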

Additional observations from a re-analysis of the deposited data

How the results depend on the processing

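In Alt versus Ctr, the 17 genes past an unadjusted p of 0.05 became 11 with the offset for gene length (9 higher, 2 lower, where 16.4% of all genes passed and 7.3% were higher) and 10 to 21 when 1 library was left out, lowest without Alt replicate 1 and highest without Alt replicate 2. The 0 genes past an adjusted p of 0.05 became 6 in DESeq2, 8 without the low-count filter (5.52% of all genes) and 0 to 12 with 1 library left out. The 12 and the 21 came without Alt replicate 2, among 74 tested genes, where 18.3% and 33.2% of all genes passed and the lone Alt library is assumed to vary like the other groups. The median log2FC of 0.24 became 0.10 with the length offset and 0.18 to 0.29 with 1 library left out. In Alt versus Ref, the 8 genes became 4 to 19 (lowest without Ref replicate 1, highest without Alt replicate 2), the 0 adjusted calls became 3 in DESeq2, 3 without the filter (3.16% of all genes) and 0 to 6 (6 without Alt replicate 2, where 14.4% of all genes passed), and the median of 0.28 became 0.17 with the length offset and 0.20 to 0.30. In Ref versus Ctr, the 5 genes became 3 in DESeq2, 3 with RLE size factors (3.1% of all genes) and 1 to 7 (7 without Alt replicate 1 or without replicate 2, where 5.51% and 5.52% of all genes passed), with 0 adjusted calls in each setting run and a median from -0.04 to 0.06. For the ordered score, the 14 genes became 8 to 15 (15 without Ctr replicate 3, where 15.3% of all genes passed), and the 0 adjusted calls became 3 in DESeq2 and 7 without the filter (4.22% of all genes), and were 0 with any 1 library left out.

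The labels give the groups shared replicate numbers. Across genes, deviations of same-numbered libraries from their group means correlated between -0.0984 and 0.0702. With 2 libraries each in Ref and Alt, the deviations within such a group are mirror images of each other. This check therefore cannot decide whether the numbers mark a pairing. With the replicate block the median log2FC in Alt versus Ctr was 0.37, and the counts past an unadjusted p of 0.05 were 14, 6 and 5 in Alt versus Ctr, Alt versus Ref and Ref versus Ctr, where 12.6%, 9.01% and 2.49% of all genes passed. With the replicate block and the length offset together, the counts were 10 and 4 in Alt versus Ctr and Alt versus Ref (12.4% and 9.57% of all genes). Of the 10, 6 were higher (5.33% of all genes) and 4 lower, and the median in Alt versus Ctr was 0.22. The median in Alt versus Ref was 0.19, and Col25a1 in Alt versus Ctr turned to a log2FC of -0.0395. Of the 30 genes and comparisons called, 24 lost their call in at least 1 alternative and 6 in none, and 1 reversed. Another scaling moved the median of all genes by less than 0.1. Beyond the constructions named (fewer libraries, another offset), the cause was not tested.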
